A study of Mus musculus with 3 samples.

Results

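Regulatory T cells (Tregs) of the sciatic nerve were the 1287 cells that the authors' cell table names Treg, their cluster 2, of 11640 deposited cells. They were compared within each library with 2 clusters that the authors named Cd4: cluster 0, with 2225 cells, and cluster 6, with 592 cells. The mice were NOD.AIRE GW/+ animals, 15 weeks old. Their sciatic nerves were taken after cardiac perfusion and digested with collagenase, and the CD45+ fraction, the leukocytes, was sequenced. This genotype has an altered Aire, the gene through which the thymus shows tissue antigens to developing T cells, on the autoimmunity-prone NOD background. Libraries 1 and 2 were read from the 3′ end of transcripts and library 3 from the 5′ end. All 3 libraries have this genotype, wild-type nerves were not analysed here, and so no effect of genotype was measured. The labels do not say whether the libraries are separate animals. The p-values here speak only of counting error and of spread between libraries, which may be technical. The tests pool that spread over genes, and over the 6 T cell clusters in the cluster comparisons. A p-value therefore does not measure 1 gene's own spread over the 3 libraries.

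Tregs are CD4 T cells that depend on the transcription factor FOXP3 and hold other T cells in check. They take up interleukin 2 through a high-affinity receptor, carry inhibitory receptors such as CTLA-4, and release interleukin 10 and transforming growth factor beta. In injured tissues Tregs are also known to make amphiregulin (Areg), a growth factor of the epidermal growth factor family that acts on parenchymal cells.

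Tregs were 557, 315 and 415 cells of libraries 1, 2 and 3, or 9.23%, 13.5% and 12.7% of all cells (11.8 ± 2.26%, SD, n = 3). Their median unique molecular identifiers (UMIs, counted RNA molecules) per cell were 2288, 3426 and 3545, against 2754, 3818 and 3357 in cluster 0. Scrublet called 2 of the 1287 Tregs doublets, both in library 2. Libraries 1 and 2 shared 6 cell barcodes, and 2 Tregs carried a barcode also seen in another library. Library 3 stood apart in what it could measure: 248 genes with at least 50 UMIs in libraries 1 and 2 together had 0 there, and 284 genes with at least 50 UMIs there had 0 in the others. Markers of other cell types were also read in Tregs. B cell markers summed to 36.7, 5.79 and 13.4 UMIs per 1000000 UMIs (CPM, unscaled) in libraries 1, 2 and 3, and to 34.2, 0.428 and 13.2 in cluster 0. Macrophage or monocyte markers summed to 173, 40.5 and 59 CPM in Tregs and 158, 33.4 and 68.6 in cluster 0. The highest sum was that of the 6 dendritic cell markers, at 353, 73.6 and 221 CPM in Tregs and 318, 34.7 and 214 in cluster 0. The part of RNA from other cells in these sums was not tested. Of 7 measured nerve stroma markers 3 were at 0 UMIs in Tregs, S100b and Dcn among them, while others, such as Mbp and Pecam1, were read.

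The defining markers of the label were all read in these cells. Foxp3 (chrX:7579676-7595243, mm10), the lineage factor of Tregs, was at 506, 415 and 536 CPM after scaling by the trimmed mean of M-values (TMM) in the Tregs of libraries 1, 2 and 3, and at 15.8, 5.11 and 20.6 in cluster 0. Ikzf2, which encodes the Helios factor of the Ikaros family, was at 1832, 1103 and 629 against 183, 163 and 106 CPM. Lrrc32, whose product GARP holds latent transforming growth factor beta on the Treg surface, was at 50.4, 48.1 and 43.7 against 1.90, 2.32 and 2.71 CPM. Izumo1r, the gene of folate receptor 4, was at 725, 667 and 851 against 233, 206 and 259 CPM, and Areg (chr5:91139599-91148432) at 292, 513 and 629.9 against 48.4, 218 and 265 CPM. All 5 markers were higher in Tregs with no overlap between the clusters, a pattern that 14.7% of tested genes showed in one direction or the other, and since markers name the cluster this describes the label. In log2 fold change with an approximate standard error (SE) these differences were 5.19 ± 0.37, adjusted p = 6.71e-11 for Foxp3, 2.90 ± 0.19, adjusted p = 9.77e-12 for Ikzf2 and 4.36 ± 0.38, adjusted p = 1.90e-09 for Lrrc32. They were 1.68 ± 0.22, adjusted p = 2.21e-06 for Izumo1r and 1.61 ± 0.29, adjusted p = 0.00016 for Areg, all by edgeR's quasi-likelihood F-test with the library as a block. The call of Areg ended with DESeq2 (adjusted p = 0.0598). The authors drew their clusters from these same counts. The p-values for one cluster against another thus measure only repeatability over the 3 libraries, with a spread pooled over genes and clusters. They do not test whether the clusters are separate populations.

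**Figure D1:**
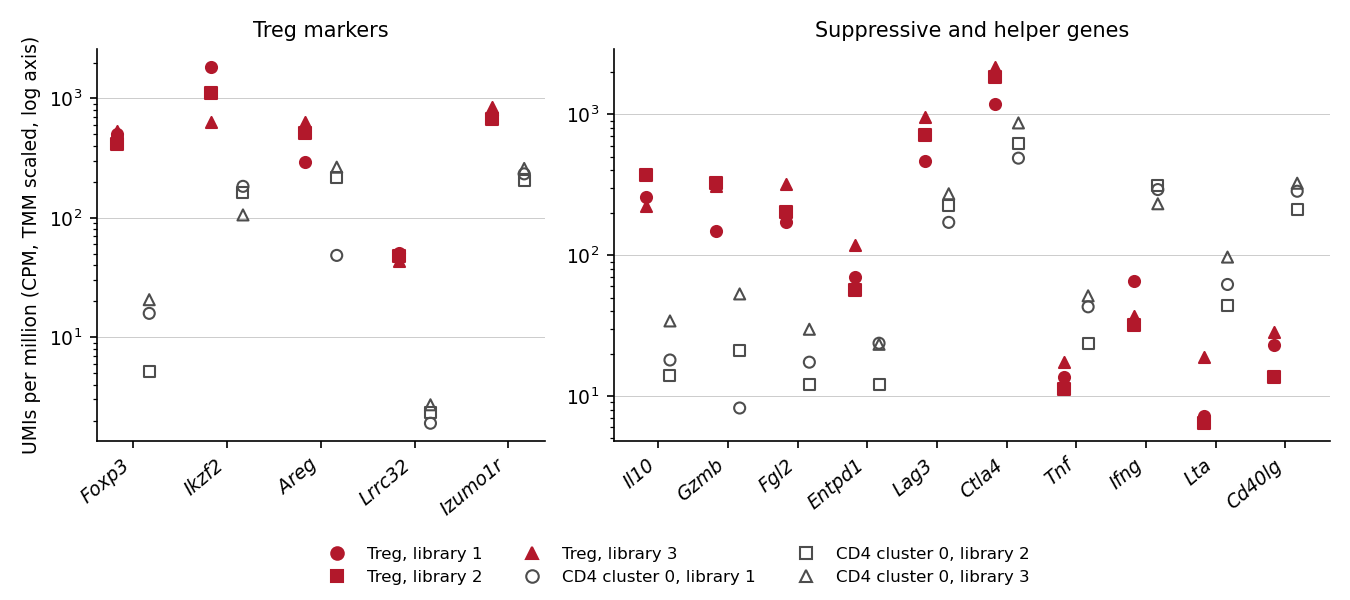
CPM of 5 Treg markers (left) and of 6 suppressive and 4 helper genes (right) in the Tregs (filled) and in CD4 cluster 0 (open), on a log axis, with 1 symbol per library. Foxp3 sits between 415 and 536 CPM in Tregs and between 5.11 and 20.6 in cluster 0, while Cd40lg sits between 13.6 and 28.6 in Tregs and between 212 and 325 in cluster 0.

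Foxp3 was found in most but not all Tregs, and the share depended on how many UMIs were read. After each cell was thinned to 1000 UMIs, a Foxp3 UMI was seen in 39.5%, 35.2% and 44.7% of Tregs in libraries 1, 2 and 3 (39.8 ± 4.73%, SD). The same measure gave 1.43%, 0.559% and 2.75% of cluster 0 cells and 0.49%, 0% and 2.33% of B cells, which should lack the gene and had median depths of 2869.5, 4445 and 4198 UMIs. With 2000 UMIs per cell, which 1034 Tregs reached, the Treg share was 57.5 ± 6.99%, and with all UMIs it was 73.4 ± 8.56%. Tregs held 70.9%, 90.7% and 76.3% of all Foxp3 UMIs of the 3 libraries.

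The cluster with the second highest Foxp3 was not one of the comparators but CD4 cluster 5, a shallow cluster with median depths of 846, 975 and 872 UMIs. In unscaled CPM its Foxp3 was 275, 324 and 158 in libraries 1, 2 and 3, against 468, 429 and 582 in Tregs. Ikzf2 was at 2161, 1943 and 835 CPM in cluster 5 and at 1697, 1139 and 682 in Tregs, so that cluster 5 was above the Tregs in every library. Gpr83, a receptor gene known as a Treg marker, was at 30.6, 40.5 and 41.7 in cluster 5 and 36.7, 25.6 and 45.6 in Tregs, with overlapping values. The other markers were lower in cluster 5 in most libraries: Izumo1r was at 153, 675 and 325 against 671, 689 and 923 CPM in Tregs and Lrrc32 at 39.7, 27 and 15.6 against 46.6, 49.6 and 47.4, both lower in each library, and Areg at 104, 715 and 397 against 271, 529 and 683, higher in library 2. The median mitochondrial share was 8.43%, 7.48% and 5.91% in cluster 5 and 3.32%, 2.31% and 1.08% in Tregs. A Foxp3 UMI was seen in 150 of the 973 cells of cluster 5 (15.4%). In cluster 5, 380 cells reach 1000 UMIs, and of these 57 (15%) had a Foxp3 UMI after thinning. The count of 1287 therefore leaves out cells of cluster 5 that carry Foxp3 reads, and these cells were not added to the Tregs.

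**Figure D2:**
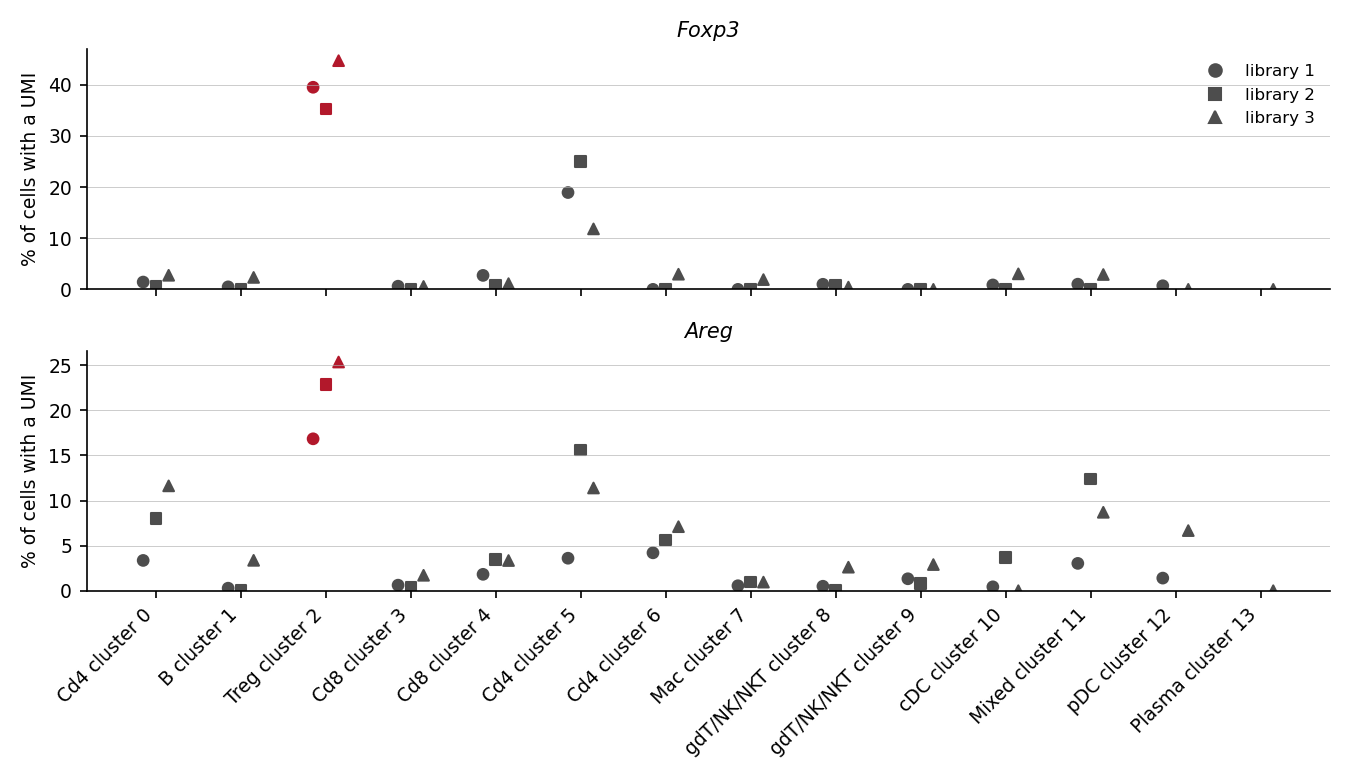
Percent of cells with at least 1 UMI of Foxp3 (top) and Areg (bottom) after thinning every cell to 1000 UMIs, for the 14 deposited clusters, with 1 symbol per library and Tregs in red; clusters with fewer than 20 such cells in a library have no symbol for it. Tregs are highest for Foxp3 in all 3 libraries at 35.2% to 44.7%, followed by CD4 cluster 5, and Areg is seen in 16.8% to 25.4% of Tregs.

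Across all genes, 1420 of 9835 tested genes (14.4%) were called between Tregs and cluster 0 at an adjusted p under 0.05, 735 higher in Tregs (7.47%) and 685 lower (6.96%). The median log2 fold change of all tested genes was -0.03. Of 165 tested genes from 14 lists of T cell biology, 81 were called. The shares over all tested genes are the background for each list count below, here and in the other comparisons. The calls rest on comparing clusters within a library: without the library in the model 168 genes were called, among them 27 of the 81. Without library 2, 807 genes were called. Without library 3, in the 2 libraries of 3′ reads alone, 1172 genes were called. The plot of list genes shows each list with its members and median.

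**Figure D3:**
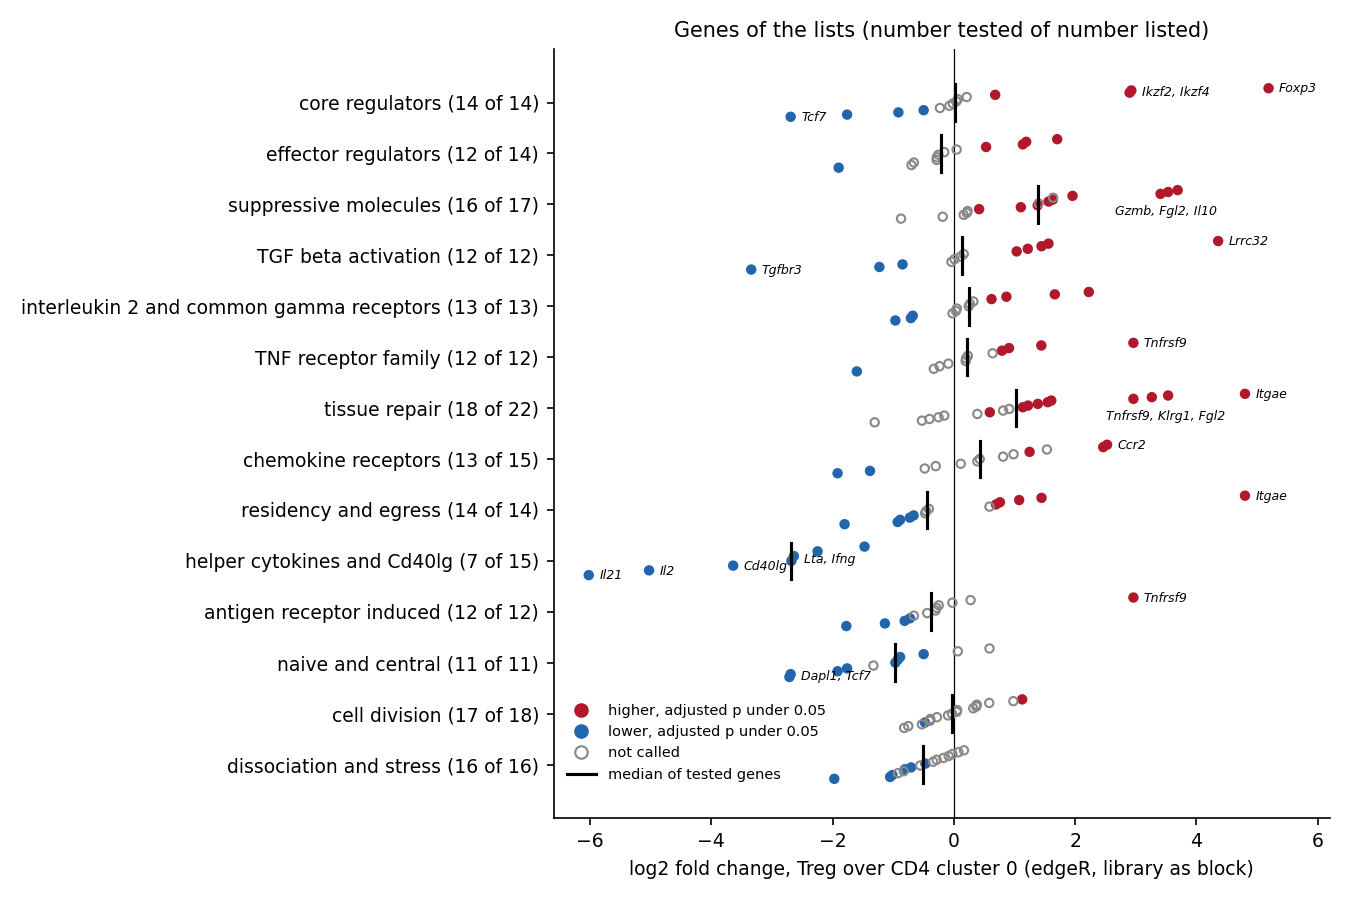
Log2 fold change of Tregs over CD4 cluster 0 for each tested gene of the 14 lists; filled points were called (red higher in Tregs, blue lower), open points were not, and the black bar is the median of the list. The medians of the suppressive and tissue repair lists are 1.39 and 1.03, that of the helper list is -2.68, and a gene on more than 1 list is drawn on each.

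Among the core regulators of Treg identity, 4 of 14 tested genes were higher than in cluster 0, 4 were lower and 6 were not called, with a list median of 0.01. Besides Foxp3 and Ikzf2, the higher genes were Ikzf4, the gene of the Ikaros family member Eos that works with FOXP3 as a corepressor, and Foxo1, a factor that restrains effector programs. Ikzf4 was at 121, 70.5 and 62.8 CPM in Tregs and 15.8, 8.36 and 9.75 in cluster 0 (2.93 ± 0.21, adjusted p = 5.54e-11, edgeR). The difference in Foxo1 was smaller, at 0.68 ± 0.12, adjusted p = 0.000117. The lower genes are known from naive and memory T cells. Tcf7, which encodes TCF-1, a factor of long-lived and naive T cells, was at 53.3, 31.2 and 35.9 CPM in Tregs and 278, 218 and 268 in cluster 0 (-2.69 ± 0.21, adjusted p = 2.48e-10). Bach2, a repressor of effector differentiation, had a log2 fold change of -1.76 and Foxp1 one of -0.91. Lef1, a relative of Tcf7, was called at -0.50, but not without library 2 (-0.32, adjusted p = 0.416) or library 3 (-0.49, adjusted p = 0.0916), nor in 2 other fits, of all clusters and of thinned cells.

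Of the regulators of effector Treg function, 4 of 12 tested genes were higher, 1 was lower and 7 were not called, with a median of -0.21. Over all tested genes 7.47% were higher and 6.96% lower. Prdm1, which encodes BLIMP-1, a factor of differentiated effector Tregs, was at 94.3, 65.7 and 58.3 CPM in Tregs and 26.6, 15.8 and 24.4 in cluster 0 (1.70 ± 0.19, adjusted p = 1.09e-07, edgeR). Maf, a factor that drives Il10, was at 1316, 1332 and 522 against 617, 613 and 209.7 CPM, higher in Tregs in each library although library 3 was lowest in both clusters (1.19 ± 0.18, adjusted p = 1.60e-05). Its call ended in the fit of all clusters (adjusted p = 0.0845). Nfil3 had a log2 fold change of 1.14. Bhlhe40, a factor known to sustain inflammatory cytokines and to repress Il10, was the lower gene, at 168, 123 and 247 CPM in Tregs against 525, 604 and 869.5 (-1.90 ± 0.16, adjusted p = 7.74e-10). Id2 was called at 0.53, and that call ended without library 2 (adjusted p = 0.17) or library 3 (adjusted p = 0.0971). Gata3, Rora and Batf, factors tied to Tregs of barrier and repair tissues, were not called, at -0.25, 0.05 and -0.16. Pparg was too low to test, with 12 UMIs in all Tregs.

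Genes of suppressive molecules were higher in Tregs in 9 of 16 tested cases and lower in none, with a median of 1.39. All 9 calls held without each library in turn. Il10 (chr1:131019845-131024970), the gene of interleukin 10, was at 261, 370.0 and 223 CPM in the Tregs of libraries 1, 2 and 3 and at 18, 13.9 and 34.1 in cluster 0. This is the largest difference of the list (3.69 ± 0.30, adjusted p = 5.04e-10, edgeR). Fgl2, a secreted suppressive protein, followed with 172, 204 and 319 against 17.4, 12.1 and 29.8 CPM (3.53 ± 0.24, adjusted p = 2.62e-11). Gzmb, the gene of granzyme B, was at 148, 327 and 312 against 8.22, 20.9 and 53.1 CPM (3.41 ± 0.33, adjusted p = 1.07e-08), and without library 3 its log2 fold change was 4.07. None of these 3 genes overlapped between the clusters, as for 14.7% of tested genes.

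The surface molecules on the list showed smaller differences. Entpd1, which encodes CD39, an enzyme that breaks down extracellular ATP, was at 69.8, 56.9 and 117 against 23.7, 12.1 and 23.3 CPM (1.96 ± 0.25, adjusted p = 1.06e-06, edgeR). Nt5e, which encodes CD73, the next enzyme of that pathway, was not called at 0.21. Ctla4, the gene of the inhibitory receptor that captures costimulatory ligands, was at 1192, 1849 and 2168 against 489, 624 and 869.5 CPM (1.38 ± 0.14, adjusted p = 3.65e-08), and Lag3, another inhibitory receptor gene, had a log2 fold change of 1.63. Tigit was at 30.2, 24.8 and 1039.9 CPM in Tregs and 9.17, 14.4 and 309 in cluster 0: higher in Tregs in every library, but with levels in library 3 far above libraries 1 and 2 in both clusters. The call of Icos, at 0.42, ended in the fit of all clusters (adjusted p = 0.609). Tgfb1, the gene of the cytokine itself, was not called, at 220.2, 216 and 316 against 202, 201 and 266 CPM (0.16), and neither were Pdcd1, Cd274, Havcr2, Prf1 and Ebi3.

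The list for transforming growth factor beta held called genes of both directions: 5 of 12 genes were higher in Tregs and 3 lower, with a median of 0.14. Beside Lrrc32, Tregs had more Itgb8 and Itgav, which encode the paired chains of an integrin that frees the active cytokine. Itgb8 was at 127, 88.1 and 74 CPM in Tregs and 37.9, 29.7 and 29.3 in cluster 0 (1.56 ± 0.19, adjusted p = 8.04e-07, edgeR), and Itgav at 157, 122 and 165 against 48.4, 43.7 and 73.1 (1.45 ± 0.15, adjusted p = 3.64e-08). Neither overlapped between the clusters, as for 14.7% of tested genes. The receptor genes moved apart: Tgfbr1 was higher (1.22), Tgfbr2 lower (-0.85), and Tgfbr3, the coreceptor betaglycan, was at 0.72, 0.801 and 6.73 against 25.3, 25.1 and 45.5 CPM (-3.34 ± 0.38, adjusted p = 2.71e-07). Without library 3 the value for Tgfbr3 was -4.86. Furin, whose enzyme cleaves the cytokine precursor, was lower at -1.23. Smad3 was called at 1.04, but not without library 1 (adjusted p = 0.0754) or library 2 (adjusted p = 0.11).

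Helper cytokine genes had the lowest median of the 14 lists. All 7 tested genes of the list of helper cytokines and Cd40lg were lower in Tregs, with a median of -2.68, and all 7 calls held without each library in turn. Il21 (chr3:37222759-37232636), the cytokine gene that helps B cells and CD8 T cells, was at 5.04, 0 and 0 CPM in Tregs and 199, 70.6 and 67.2 in cluster 0. Its 7 UMIs in Tregs were all in library 1, and the log2 fold change was -6.02 ± 0.36, adjusted p = 2.47e-12 (edgeR), or -9.37 without library 1, a fitted value that depends on the prior count because the remaining Tregs have 0 UMIs. After thinning to 1000 UMIs, Il21 was seen in 0 of 1281 Tregs, which allows a share of up to 0.234% of cells with an Il21 UMI at that depth and does not show that the other cells lack the gene. Its neighbour Il2 (chr3:37120713-37125954), the growth factor gene whose product Tregs consume, was at 0.72, 3.20 and 3.93 against 58.2, 109.6 and 110.0 CPM (-5.03 ± 0.39, adjusted p = 6.74e-10). Cd40lg, the ligand that licenses B cells and antigen-presenting cells, was at 23, 13.6 and 28.6 against 285, 212 and 325 CPM (-3.64 ± 0.26, adjusted p = 5.47e-11).

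Inflammatory effector genes of the same list were lower too, though still read in Tregs. Ifng, the gene of interferon gamma, was at 65.5, 32 and 37 CPM in Tregs and 292, 311 and 232 in cluster 0 (-2.64 ± 0.30, adjusted p = 1.70e-07, edgeR). Tnf was at 13.7, 11.2 and 17.4 against 43, 23.7 and 51.5 CPM (-1.47 ± 0.20, adjusted p = 4.62e-06), the smallest difference of the 7. Lta and Fasl had log2 fold changes of -2.68 and -2.25. None of these genes overlapped between the clusters, as for 14.7% of tested genes. Of the 8 listed cytokines not tested, Csf2 had 0 UMIs in Tregs and 4, 103 and 0 in cluster 0 of libraries 1, 2 and 3, and Il13 had 0 in Tregs and 2, 113 and 5 in cluster 0. Both of these cluster 0 signals thus came mostly from library 2. A count of 0 over all Tregs allows up to 0.689 CPM (3 UMIs of 4353244), covering counting error only. Il17a gave 3 UMIs in Tregs, and Il22, Il5 and Il4 gave 0.

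Receptor chains for interleukin 2 were higher in Tregs in part. Il2ra, the gene of CD25, the chain that makes the receptor high-affinity, was at 207, 179 and 234 CPM in Tregs and 43.9, 45 and 41.7 in cluster 0 (2.23 ± 0.17, adjusted p = 3.38e-10, edgeR). Il2rb, the shared signalling chain, was higher at 0.87, and Il4ra at 1.67. The common gamma chain Il2rg was not called (0.05), and Il7r, the interleukin 7 receptor gene that Tregs are known to carry at low level, was at 322, 378 and 347 against 685, 665 and 701 CPM (-0.96 ± 0.15, adjusted p = 3.10e-05). In all, 4 of 13 genes of this list were higher, 3 lower and 6 not called, with a median of 0.25. The calls of Jak3, Socs1 and Socs3 ended without library 2 (adjusted p = 0.423, 0.0792 and 0.0783), and that of Jak3 also without library 3 (0.18).

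In the tumour necrosis factor receptor family, 4 of 12 genes were higher, 1 was lower and 7 were not called, with a median of 0.22. Tnfrsf9, which encodes the costimulatory receptor 4-1BB, was at 231, 251 and 601 CPM in Tregs and 27.2, 50.6 and 54.7 in cluster 0 (2.96 ± 0.27, adjusted p = 4.17e-09, edgeR), with no overlap. Tnfrsf18, the gene of GITR, was at 1045, 1161 and 1290.0 against 522, 706 and 650.1 CPM (0.91 ± 0.13, adjusted p = 6.64e-06). Tnfrsf1b, the gene of TNFR2, the tumour necrosis factor receptor through which Tregs are known to expand, was at 123, 281 and 318 against 86, 172 and 142 CPM (0.79 ± 0.16, adjusted p = 0.000787). It was higher in Tregs in every library, with library 1 lowest in both clusters. Cd27 was higher at 1.44. Tnfrsf4, the gene of OX40, was above cluster 0 in each library but not called (0.64 ± 0.23, adjusted p = 0.0601), and Tnfrsf25, the receptor gene DR3, was the lower one at -1.60. Of the ligand genes of this family, 2 were among the lowest genes outside the lists: Tnfsf8 (CD30 ligand) was at 53.3, 48.1 and 24.7 CPM in Tregs and 1253, 1024 and 503 in cluster 0 (-4.45), and Tnfsf11 (RANKL) at 15.8, 18.4 and 39.3 against 164, 302 and 367 (-3.50).

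Tissue repair genes were higher in Tregs in 10 of 18 tested cases and lower in none, with a median of 1.03. The 10 include Areg, a marker of the label, and Fgl2, Tnfrsf9, Itgae and Nfil3, which other lists count too. Gata3 and Batf are also on this list and were not called. Areg has been given above: after thinning to 1000 UMIs it was seen in 16.8%, 22.9% and 25.4% of Tregs, against 3.36%, 8.01% and 11.6% of cluster 0 and 0.28%, 0% and 3.37% of B cells. Library 1 was the lowest for Tregs and for cluster 0, and among B cells library 2 had 0 of 88 cells. Dgat1, which makes triglycerides, had a log2 fold change of 1.38 and Cd200r1, an inhibitory receptor gene, one of 1.22. Il1r2, the interleukin 1 decoy receptor gene, was at 24.5, 16.8 and 30.3 CPM in Tregs and 9.80, 4.64 and 10.3 in cluster 0 (1.55 ± 0.34, adjusted p = 0.00146, edgeR). Il1rl1, which encodes ST2, the interleukin 33 receptor of repair Tregs, was at 41, 16.8 and 12.3 against 14.2, 12.1 and 9.21 CPM, above cluster 0 in each library, and missed the threshold (0.91 ± 0.32, adjusted p = 0.0579). Without library 3 it was called (adjusted p = 0.0333). Klrg1, at 8.64, 1.60 and 8.97 against 0.316, 0 and 1.63 CPM, was called at 3.27, but not without library 1 (adjusted p = 0.0627), and without library 3 its value was 4.27. Il18r1 was called at 0.59, but not without library 1 (adjusted p = 0.0764) or library 2 (adjusted p = 0.0731). The call of Areg itself ended with DESeq2, as above.

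Homing and residence genes were called in both directions. Itgae (chr11:73090505-73147449), which encodes CD103, the integrin chain that binds E-cadherin, was at 81.3, 143 and 314 CPM in the Tregs of libraries 1, 2 and 3 and at 7.27, 2.32 and 6.50 in cluster 0. Library 3 was highest among Tregs and the clusters did not overlap (4.80 ± 0.30, adjusted p = 4.44e-12, edgeR), and without library 1 the value was 5.67. Itgae was not highest in Tregs among all clusters. In unscaled CPM it was at 75.3, 148 and 341 in Tregs, 150, 283 and 465 in cluster 5 and 272, 250 and 689 in cluster 9. Its partner chain Itgb7 was higher too, at 350.5, 425 and 574 against 133, 204 and 322 CPM (1.08 ± 0.17, adjusted p = 3.28e-05). Itgb1, the beta 1 chain, was lower, at 296, 297 and 343 against 986, 999 and 1301 CPM (-1.80 ± 0.22, adjusted p = 8.13e-07). In the list of residency and egress genes 5 of 14 were higher and 5 lower, with a median of -0.43. S1pr1, the receptor that leads T cells out of tissue, was lower at -0.89, and Cd69, which opposes it, was lower as well at -0.72, a call that ended in the fit of all clusters (adjusted p = 0.107).

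Among chemokine receptors 3 of 13 genes were higher and 2 lower, with a median of 0.43. Ccr2, the receptor gene for the monocyte chemoattractant CCL2, was at 481, 449 and 418 CPM in Tregs and 76.2, 52.5 and 109 in cluster 0 (2.53 ± 0.20, adjusted p = 3.63e-10, edgeR). The lymph node homing receptor gene Ccr7 went the other way, at 123, 99.3 and 147 against 349, 401 and 691 CPM (-1.92 ± 0.15, adjusted p = 5.20e-10), as did Gpr183, the oxysterol receptor gene, at -1.38. None of these 3 overlapped between the clusters, as for 14.7% of tested genes. Ccr4 was called at 1.25, but not without library 3 (adjusted p = 0.0773). Ccr8, Cxcr3, Cxcr4 and Cxcr6 were not called, and Ccr8 stood at 8.64, 36 and 375 CPM in Tregs, far higher in library 3, with a like order of 12.3, 36.7 and 217 in cluster 0.

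Genes of naive and central memory T cells were lower than in cluster 0 in 8 of 11 cases and higher in none, with a median of -0.96. Of the 8 calls 5 held without each library in turn. These 8 include Tcf7, Ccr7, Il7r, Bach2, S1pr1 and Lef1 above. Klf2, which drives the egress program, was called at -0.93, but not without library 2 (adjusted p = 0.157) or with DESeq2 (0.0859), and Lef1 not without library 2 (0.416) or library 3 (0.0916). Of 17 cell division genes 1 was higher and 1 lower, not above the 14.4% called in either direction over all tested genes. Mki67, the proliferation antigen gene, was at 27.3, 8.81 and 14.6 CPM in Tregs and 22.1, 10.7 and 18.4 in cluster 0 (-0.03 ± 0.41, adjusted p = 0.982, edgeR).

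Genes that antigen receptor signalling induces were lower in 4 of 12 cases and higher in 1 (Tnfrsf9), with a median of -0.37. Nr4a1, an early reporter of receptor signalling, was not called, at 145, 194 and 642 against 193, 269 and 703 CPM (-0.30). Dusp2, a phosphatase gene, was lower at -1.14 (edgeR adjusted p = 2.43e-05). Genes known to respond to tissue dissociation and stress were lower in Tregs in 6 of 16 cases and higher in none, with a median of -0.51, and 4 of the 6 calls held without each library in turn. Among them was Fos at 235, 171 and 156 against 403, 295 and 285 CPM (-0.81 ± 0.16, adjusted p = 0.000523). Egr1 is on both of these lists, and what part cell preparation has in these differences was not tested.

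Outside the lists, the 12 genes with the largest positive fold changes were Gpr83, Neb, Rin2, Pvrig, Sdc4, Itih5, Rapsn, Arl5a, Ncmap, Snx9, Ecm1 and Slc16a3, from 6.14 for Gpr83 to 3.14 for Slc16a3. Gpr83 (chr9:14859880-14870789), which lies beside Izumo1r (chr9:14885814-14903951), had 161 UMIs in Tregs and 3 in cluster 0, a CPM ratio of 98.8-fold (95% interval 33.2 to 484) from counting alone. Neb, which encodes the muscle filament protein nebulin, was at 276, 160.2 and 68.4 CPM in Tregs and 5.69, 5.11 and 4.33 in cluster 0 (5.03 ± 0.26, adjusted p = 1.58e-13, edgeR), lowest in library 3. Rapsn, known for clustering acetylcholine receptors at the nerve-muscle synapse, was at 30.2, 46.5 and 44.3 against 3.48, 5.11 and 1.08 CPM, and Ncmap, known as a myelin-associated gene, at 123, 115 and 144 against 12, 17.2 and 8.13 CPM (3.59 and 3.36). The 7 measured nerve stroma markers summed to 109, 87.7 and 87.6 unscaled CPM in Tregs and to 173, 141 and 164 in cluster 0, lower in Tregs in each library. S100b and Dcn were at 0 UMIs in Tregs, but others were read. Mbp, a myelin gene, had 54 and 183 UMIs in the Tregs with and without an Areg UMI that are compared below, and Pecam1 had 35 and 133. The part of RNA from nerve cells in the reads of Rapsn and Ncmap was not tested. Pvrig, an inhibitory receptor gene, was at 20.1, 13.6 and 77.4 against 0.949, 0 and 4.88 CPM, and Sdc4, a heparan sulfate proteoglycan gene, at 69.1, 54.5 and 55.5 against 4.11, 0.929 and 4.33.

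The 12 genes with the largest negative fold changes outside the lists were Sostdc1, Igfbp7, Tnfsf8, Spp1, Nrgn, Ccl1, Tnfsf11, Xcl1, Nsg2, Tbc1d4, Bcl2 and Kif15. Sostdc1, a secreted antagonist gene known from follicular helper T cells, had 1 UMI in Tregs and 334 in cluster 0, whose CPM was higher by 181-fold (95% interval 32.3 to 7187) from counting alone. Spp1, the gene of osteopontin, was at 6.48, 7.21 and 17.4 CPM in Tregs and 275, 254 and 164 in cluster 0 (-4.34 ± 0.41, adjusted p = 8.90e-09, edgeR), or -5.27 without library 3. Bcl2, the survival gene, was at 38.9, 29.6 and 29.7 against 259, 277 and 178 CPM (-2.84 ± 0.16, adjusted p = 1.25e-12). Xcl1, a chemokine gene that attracts cross-presenting dendritic cells, had a log2 fold change of -3.37. Ccl1 was at 4.32, 3.20 and 0.561 against 21.8, 136 and 7.04 CPM, highest in cluster 0 of library 2. Its log2 fold change of -4.15 became -5.04 without library 1, and without library 2 it was no longer called (-2.84, adjusted p = 0.142). The fitted value of Sostdc1, -7.10, was -8.74 without library 1 and -6.45 without library 2.

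Against CD4 cluster 6, Tregs had less Il10, more RNA of the naive T cell genes Tcf7, S1pr1 and Klf2 and again less of helper genes. In this comparison 709 of 9835 genes (7.21%) were called, 402 higher in Tregs (4.09%) and 307 lower (3.12%), with a median log2 fold change of 0.01 over all tested genes. Without library 2, 352 genes were called, and 112 without the library in the model. Il10 was lower in Tregs here: 261, 370.0 and 223 CPM against 809, 1056 and 509 in cluster 6 of libraries 1, 2 and 3, with no overlap, as for 13.1% of tested genes (-1.46 ± 0.24, adjusted p = 0.000119, edgeR). With DESeq2 this call of Il10 ended (adjusted p = 0.05). Il21 was at 248, 147 and 101 CPM in cluster 6 (-6.65, or -10.22 without library 1, where all Treg UMIs lay, again set by the prior count), so that Il10 and Il21 were read together in a cluster whose Foxp3 was at 1.77, 3.27 and 63.8 CPM. The log2 fold change of Foxp3 was 4.37, and 7.44 without library 3, which held 41 of the 44 Foxp3 UMIs of cluster 6. Because both comparisons use the same Treg sums, they are set side by side and not correlated.

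In the suppressive list, 2 of 16 genes were higher in Tregs than in cluster 6 (Gzmb and Nt5e), 4 were lower (Il10, Lag3, Entpd1 and Havcr2) and 10 were not called, with a median of 0.00. Lag3 was at 466, 715 and 960.2 CPM in Tregs and 857, 1221 and 1491 in cluster 6 (-0.76 ± 0.16, adjusted p = 0.00238, edgeR), a call that ended in the fit of all clusters (adjusted p = 0.146). Ctla4 and Fgl2 were not called, at -0.33 and 0.33. Gzmb was at 148, 327 and 312 against 8.87, 27.8 and 134 CPM (2.30 ± 0.36, adjusted p = 5.85e-05, and 3.71 without library 3). The calls of Entpd1 and Nt5e ended without library 2 (adjusted p = 0.35 and 0.269). Of the helper list, 6 of 7 genes were lower in Tregs than in cluster 6, with a median of -2.60. Cd40lg was at 236, 175 and 251 CPM in cluster 6 (-3.33) and Ifng at 989.8, 631 and 353 (-3.81), while Il2, with 0 UMIs in cluster 6 in all 3 libraries, was not called. Lta was called at -1.38, but not without library 1 (adjusted p = 0.242).

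Naive and central genes were higher in Tregs than in cluster 6 in 8 of 11 cases and lower in 1 (Bach2), with a median of 1.79. Of these 9 calls 4 held without each library in turn. Without library 2 the calls of Ccr7, Il7r and Satb1 ended, among others (adjusted p = 0.253, 0.0542 and 0.17), and without library 1 those of Ccr7 and Lef1 (0.266 and 0.248). The call of Lef1 also ended without library 3 (0.0553). Tcf7 was at 53.3, 31.2 and 35.9 CPM in Tregs and 8.87, 1.63 and 7.78 in cluster 6 (2.70 ± 0.46, adjusted p = 0.000194, edgeR), S1pr1 at 221, 202 and 191 against 53.2, 49 and 32.7 (2.19 ± 0.26, adjusted p = 8.14e-07) and Klf2 at 244, 319 and 467 against 30.2, 49 and 112 (2.45 ± 0.31, adjusted p = 2.79e-06). For each of these 3 genes Tregs thus stood between cluster 0 and cluster 6 in every library. Areg was at 292, 513 and 629.9 CPM in Tregs and 47.9, 63.7 and 76.3 in cluster 6 (2.96 ± 0.37, adjusted p = 2.28e-06), with no overlap. Il1rl1 had 1.77, 0 and 0 CPM in cluster 6, against 41, 16.8 and 12.3 in Tregs (5.11 ± 0.83, adjusted p = 0.000127, or 7.13 without library 1, which leaves cluster 6 at 0 and the value set by the prior count). Cxcr6, a receptor gene of tissue-resident effector cells, was at 140.3, 74.5 and 218 against 857, 574 and 1075 CPM (-2.57 ± 0.29, adjusted p = 3.92e-07). Itgae was higher in Tregs than in cluster 0 or cluster 6 (4.17 here), but not than in clusters 5 and 9, as given above.

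Outside the lists, the 8 genes highest in Tregs against cluster 6 were Swap70, C2cd4b, Ecm1, Sdc4, Tmem158, Epcam, Rapsn and Arl5c. Ecm1, Sdc4 and Rapsn were also among the 12 highest against cluster 0. Swap70 had 175 UMIs in Tregs and 3 in cluster 6, a CPM ratio of 23.8-fold (95% interval 8.0 to 116) from counting alone. Its fitted value was 4.51, or 3.78 and 5.54 without libraries 1 and 2. Epcam, the epithelial adhesion gene, was at 59, 62.5 and 50.5 CPM in Tregs and 1.77, 6.54 and 9.34 in cluster 6 (3.24 ± 0.36, adjusted p = 2.99e-07, edgeR, or 3.84 without library 3). Without library 3, C2cd4b and Sdc4 were at 5.79 and 5.09 in place of 3.68 and 3.42. Sdc4 was at 2.77 without library 1, and Ecm1 at 4.27 without library 2 in place of 3.42. The 8 lowest were Vdr, Igfbp7, Dlg2, Spp1, Prr5l, Tnfsf8, Ccl3 and St6galnac1. Vdr, the vitamin D receptor gene, had 1 UMI in Tregs and 69 in cluster 6, whose CPM was higher by 169-fold (95% interval 29.4 to 6781) from counting alone. Ccl3, a chemokine gene, was at 48.9, 36 and 48.8 CPM in Tregs and 651, 538 and 492 in cluster 6 (-3.66 ± 0.29, adjusted p = 1.15e-09). The values of Vdr, Spp1 and Prr5l without library 3 were -8.73, -5.37 and -5.56, in place of -6.93, -4.50 and -4.22. Prr5l was at -3.53 without library 1, and Dlg2 at -4.19 without library 2 in place of -4.94.

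Within the Tregs, cells with and without an Areg read were compared next, a measure in which genes other than Areg had no part in the grouping. An Areg UMI was seen after thinning to 1000 UMIs in 93 of 552, 72 of 315 and 105 of 414 Tregs of libraries 1, 2 and 3, and the other cells were 459, 243 and 309. Median UMIs were 2183, 3433 and 3829 in the cells with Areg and 2331, 3426 and 3493 in those without. A cell without an Areg UMI among 1000 may still express Areg. Of 6630 tested genes 81 (1.22%) were called, 73 higher with Areg (1.1%) and 8 lower (0.121%), with Areg itself left out. The common dispersion, the spread of counts beyond counting error that genes share, was 0.0029 in this fit and 0.0127 in the cluster fit. The very small p-values of the split rest on UMI counting and on this pooled spread. They do not measure how well a single gene repeats over the 3 libraries. The number of calls rested on library 3: without it 6 genes were called. DESeq2 called 23, and edgeR without the library in the model called 0, with 75 genes at an unadjusted p under 0.05.

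Of the 81 calls 6 held without each library in turn: Nfkbia, Nfkbiz, Gadd45b, Rel, Pim1 and Ccl5. Nfkbia (chr12:55489409-55492647), which encodes the inhibitor that holds NF-kB in the cytoplasm and is itself induced by NF-kB, was at 1934, 1842 and 2275 CPM in the cells with Areg of libraries 1, 2 and 3 and at 1014, 936 and 836 in those without (1.13 ± 0.08, adjusted p = 4.28e-46, edgeR). Nfkbiz, a nuclear member of the same family, was at 387, 301 and 436 against 194, 111 and 159 CPM (1.30 ± 0.12, adjusted p = 6.94e-24). Gadd45b, a stress response gene, was at 882, 915 and 590.2 against 519.9, 486 and 228 (1.01 ± 0.09, adjusted p = 1.42e-23). None of these 3 overlapped between the cells with and without Areg, as for 4.95% of tested genes. Rel, which encodes the NF-kB subunit c-Rel, was at 423, 358 and 197 against 206, 168 and 104 CPM, higher in each library (1.02 ± 0.13, adjusted p = 6.09e-13), and Pim1, a kinase gene, at 1286, 2121 and 1363 against 831, 1101 and 722 (0.84 ± 0.08, adjusted p = 1.42e-23). These 5 genes were also called in each of the other 7 alternatives that keep the library in the model.

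Other genes were called on all 3 libraries but depended on single ones. Il7r and Nr4a1 were higher with Areg in each library, at 0.49 and 0.65 (edgeR adjusted p = 0.000454 and 7.28e-07), and both calls ended without library 3. Icam1, an adhesion gene, was at 220.4, 305 and 239 CPM with Areg and 153, 118 and 119 without (0.98 ± 0.14, adjusted p = 3.50e-10, edgeR), and Birc3, an inhibitor of apoptosis gene, at 0.94. Nfkbid, another NF-kB inhibitor family gene, was at 1.26 and Dusp14, a phosphatase gene, at 1.34. The calls of these 4 ended without library 3 (adjusted p = 0.376, 0.376, 0.889 and 0.398). Il1rl1, the interleukin 33 receptor gene, was at 121, 33.9 and 23.7 CPM with Areg and 26.5, 13.1 and 9.58 without, higher with Areg in each library and highest in library 1 on both sides. Its log2 fold change was 1.80 ± 0.33, adjusted p = 1.36e-05, and its call ended without library 1 (adjusted p = 0.397) or library 3 (adjusted p = 0.171). Gla, Cd83, Irak1bp1 and Map3k8, the remaining genes of the 8 largest positive fold changes, had values of 1.45, 1.35, 1.25 and 1.19. None of these 4 was called without library 3 (adjusted p = 0.889, 0.935, 0.455 and 0.889), and without it Map3k8 was at 1.22. The calls of Cd83 and Irak1bp1 also ended without library 1 (0.115 and 0.0764), and those of Gla and Irak1bp1 without library 2 (0.269 and 0.631). Map3k8 was at 0.56 without library 2 (adjusted p = 0.915).

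Among the 8 genes lower in the cells with Areg were 2 chemokine genes. Klf2 was also among the 8, lower with Areg in each library (-0.41 ± 0.11, adjusted p = 0.0244, edgeR), and its call ended without library 2 or library 3. Ccl5, the chemokine gene of effector T cells, was at 962, 821 and 1766 CPM with Areg and 2037, 1562 and 2347 without (-0.76 ± 0.08, adjusted p = 7.37e-19, edgeR), a call that held without each library but ended when cells were split after thinning to 2000 UMIs (-0.18, adjusted p = 0.234). Hint3 and Chchd10 were called at -0.88 and -0.57. Without library 2 neither was called (adjusted p = 0.551 and 0.234), nor without library 3 (0.917 and 0.561), and Chchd10 was not called without library 1 (0.458). Ccl3 and Gzmk, the gene of granzyme K, had values of -1.58 and -1.08. The call of Ccl3 ended without each of the 3 libraries, with a value of -2.65 without library 3, and that of Gzmk without library 2 (adjusted p = 0.0705) or library 3 (adjusted p = 0.949). Of the Treg identity genes, Ikzf2 was called higher with Areg, at 2055, 1578 and 822 CPM with Areg and 1836, 1045 and 618 without (0.38 ± 0.08, adjusted p = 0.000227, edgeR). It was higher in each library, and its call ended without library 2 or library 3. Foxp3 was not called, at 562, 550.0 and 569 CPM with Areg and 508, 406 and 571 without (0.17 ± 0.10, adjusted p = 0.76, edgeR). Ctla4 and Gzmb were not called either, at 0.10 and -0.00, and Il10 was lower with Areg in each library without a call (-0.36 ± 0.12, adjusted p = 0.154). In the tissue repair list 5 of 13 genes were higher and 0 lower, with a median of 0.34 against -0.00 over all tested genes. Over all tested genes of the split 1.1% were higher and 0.121% lower. None of these 5 calls (Il1rl1, Il18r1, Il1r2, Batf and Tnfrsf9) held without each library in turn, and DESeq2 ended those of Il18r1, Batf and Tnfrsf9 (adjusted p = 0.395, 0.176 and 0.846) and gave no adjusted p for the other two. Without library 3 none was called, with adjusted p from 0.171 for Il1rl1 to 0.96 for Il1r2. In the dissociation and stress list 3 of 13 were higher (Junb, Fosb and Zfp36) and 0 lower, with a median of 0.26. The calls of all 3 ended without library 3 (adjusted p = 0.889, 0.889 and 0.743), and those of Junb and Fosb without library 1 (0.0795 and 0.542). Fosb also lost its call without library 2 (0.111). The part of cell handling in the Areg split was not tested.

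**Figure D4:**
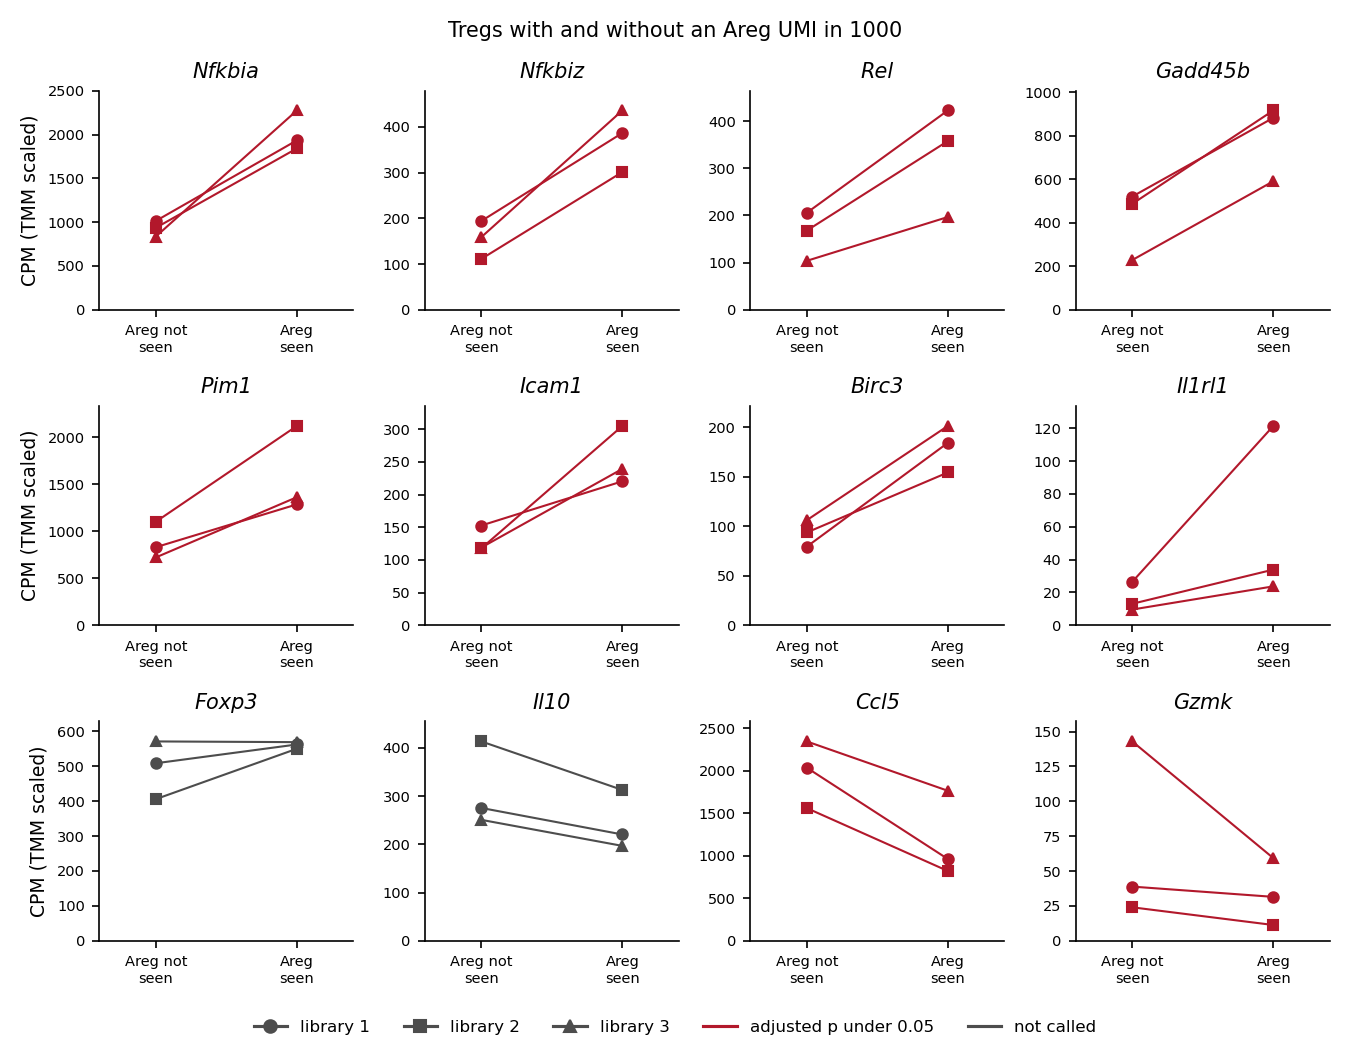
CPM of 12 genes in Tregs without and with an Areg UMI among 1000, with 1 line per library and axes from 0; red lines mark genes called at an adjusted p under 0.05. Nfkbia is higher with Areg in each library, going from 836 to 1014 CPM without Areg to 1842 to 2275 with it, while Ccl5 and Gzmk are lower with Areg by the test and Foxp3 and Il10 are not called.

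The promoters of the genes higher with Areg were searched, with motifs chosen after these values were seen. The kB motif searched was GGG, any 2 bases, then TTTCC, on either strand, in windows from 250 bases before to 50 bases after the RefSeq gene start (GRCm38.p6, the assembly of mm10). Of the 73 higher genes 56 had a window, and 9 of these (16.1%) held the motif, against 2.01% of the tested genes with a window and 1.89% of all 27025 genes with a window. For comparison, TGACGTCA (the cyclic AMP response element) was in 5.36% of the higher genes and 4.17% of those tested, and TGANTCA (an AP-1 site) in 14.3% and 5.72%. A match describes letters only and is no proof of binding. Of the 9 genes with the kB motif, Gbp5, Serpina3g and Neurl3 are not shown, with log2 fold changes with Areg of 0.90, 0.83 and 0.61. The stretches around the match are shown for Nfkbia, Rel, Ltb, Tnfaip3 and Tnfrsf9, picked as examples from the NF-kB and tumour necrosis factor families. Nfkb2, an NF-kB subunit gene that is also among the 9, had matches at more than 1 RefSeq start and is not printed. Each is written 5′ to 3′ on the gene's strand, with the match in capitals:
Nfkbia, chr12:55492657-55492686 (- strand): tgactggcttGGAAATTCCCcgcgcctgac
Rel, chr11:23771041-23771070 (- strand): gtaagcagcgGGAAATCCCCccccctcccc
Ltb, chr17:35194410-35194439 (+ strand): aagggtgttcGGAAAGTCCCcgggcagggg
Tnfaip3, chr10:19015403-19015432 (- strand): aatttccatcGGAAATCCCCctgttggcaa
Tnfrsf9, chr4:150927946-150927975 (+ strand): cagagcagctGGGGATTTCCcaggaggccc
The matches start 29, 91, 87, 12 and 43 bases before the gene start. Their log2 fold changes with Areg were 1.13, 1.02, 0.47, 0.41 and 0.37. The calls of Ltb, Tnfaip3 and Tnfrsf9 ended without library 3 (adjusted p = 0.889, 0.889 and 0.889), that of Ltb also without library 2 (0.106), and that of Tnfrsf9 without libraries 1 and 2 (0.0758 and 0.355).

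The 250 bases before the start of Areg itself, the gene that defined the split, held no kB match and 1 match to TGACGTCA, in capitals, which starts 61 bases before the gene start:
Areg, chr5:91139349-91139598 (+ strand): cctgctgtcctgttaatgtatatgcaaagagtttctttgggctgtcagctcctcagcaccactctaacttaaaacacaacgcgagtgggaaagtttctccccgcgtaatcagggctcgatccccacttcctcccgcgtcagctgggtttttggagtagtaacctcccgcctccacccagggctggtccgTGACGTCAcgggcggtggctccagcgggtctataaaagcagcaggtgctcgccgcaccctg
The same stretch of Nfkbia, the gene with the smallest adjusted p, held the kB match shown above and no TGACGTCA, and is printed whole for its setting:
Nfkbia, chr12:55492648-55492897 (- strand): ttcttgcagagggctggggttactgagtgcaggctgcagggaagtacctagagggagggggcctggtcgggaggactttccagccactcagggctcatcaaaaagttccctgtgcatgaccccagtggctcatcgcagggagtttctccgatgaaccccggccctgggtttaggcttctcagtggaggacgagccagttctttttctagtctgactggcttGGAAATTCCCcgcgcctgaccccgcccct

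The antigen receptor genes of Tregs could be read in library 3, whose 5′ reads reach the variable segments. A Trbv segment was seen in 397 of 415 Tregs (95.7%) and 463 of 485 cluster 0 cells (95.5%) of that library, against 10.8% and 8.25% of the Tregs of libraries 1 and 2. With 1 such library there is no test, and the intervals cover counting error only. Counted by cells, the segment seen most often was Trbv13-2 in both. It was seen in 23.7% of those Tregs (95% exact binomial interval 19.6 to 28.2) and 22.5% of those cluster 0 cells (18.7 to 26.5). A cell with UMIs of more than 1 segment counts for each of them. Next by cells came Trbv19 in Tregs, seen in 18.1% of those Tregs (95% exact binomial interval 14.5 to 22.3) and 14.3% of those cluster 0 cells (11.2 to 17.8). In cluster 0 it was Trbv13-1, seen in 10.6% of those Tregs (95% exact binomial interval 7.73 to 14) and 15.6% of those cluster 0 cells (12.4 to 19.2). Counted by Trbv UMIs, the order differed. In Tregs Trbv16 held the most, 19.1% of these UMIs, against 10.9% for Trbv13-2 and 7.76% for Trbv19. Trbv16 was seen in 15.4% of those Tregs. In cluster 0 Trbv13-1 held 15.4% of the Trbv UMIs and Trbv13-2 10.4%. Of 23 Trbv segments, Trbv13-3 alone had intervals that did not meet, in 5.04% of those Tregs (95% exact binomial interval 3.10 to 7.67) and 10.4% of those cluster 0 cells (7.74 to 13.5). Of 70 Trav segments 4 did so. Trav21-dv12 was seen in 1.34% of those Tregs (95% exact binomial interval 0.437 to 3.10) and 7.14% of those cluster 0 cells (4.90 to 9.99), and Trav7-3 was lower in Tregs as well. Trav6-1 and Trav8n-2 were higher, Trav8n-2 in 5.90% of those Tregs (95% exact binomial interval 3.73 to 8.79) and 1.61% of those cluster 0 cells (0.651 to 3.29). Trav segments have near-identical copies in the mouse, so counts of single members of that family are uncertain, and whether Tregs of 1 segment descend from the same clone was not tested.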

How the data were processed

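Leukocytes of sciatic nerves were profiled by single-cell RNA sequencing in 3 libraries. The authors deposited a table of whole-number UMI counts per gene and cell and a table of cells with their clusters and names, the percent of mitochondrial UMIs, and cell cycle scores, per the file headers. Cell Ranger 5.0.1, Seurat 4.0 and the mm10 build are named in the submitters' processing notes. The deposited percent was used to describe clusters and the deposited scores were not used. Cells were mapped to libraries by the library names of the cell table, and the deposited cell names and filters were kept. The deposited cells had at least 491 UMIs and at most 12.49% mitochondrial UMIs.

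Counts were summed per cluster and library and tested with edgeR 4.0.16 (quasi-likelihood F-test, TMM scaling, filterByExpr, library as a block) in R 4.3.3, over the 6 T cell clusters, with Benjamini-Hochberg adjusted p-values over all tested genes and a threshold of 0.05. The block was kept because both sums of a pair are cells of the same library, and over 4351 genes their deviations correlated at 0.903, 0.861 and 0.941 for Tregs and cluster 0. Each SE is approximate: it is the absolute log2 fold change divided by the square root of the F statistic, and was not given by the fit. The Areg split, with its own fit of 6 sums, left Areg out. Sums of all UMIs were tested after cells were split on UMIs thinned to 1000. Scrublet, run through scanpy 1.11.5, called 84 of 11640 cells doublets. These cells were kept, and an alternative left them out. Intervals are exact binomial (Clopper-Pearson) at 95% and, like the floor of 3 counts, cover counting error only. The scripts were tested on simulated data.

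The members and gene lists were chosen with earlier results of these data known, so no list is independent evidence. Every list gene may be named. Beside them stand the 12 highest and 12 lowest called genes against cluster 0, and 8 against cluster 6 and in the split, with the same sign in all 3 libraries and a mean of at least 30 CPM in the higher cluster, leaving out cell type markers, list genes, mitochondrial, ribosomal and antigen receptor genes and unnamed genes. Ighm and the promoter motifs were chosen after their values were seen. Alternatives changed the block, the clusters in the fit, the scaling, the tool (DESeq2 1.42.0), the filter, the depth, doublets, the Tregs kept and each library. A few genes of the lists are not reported here by name. Promoter windows are RefSeq's on GRCm38.p6.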

Additional observations from a re-analysis of the deposited data

How the results depend on the processing

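Without the replicate block, 168 genes were called against cluster 0, 112 against cluster 6 and 0 in the Areg split (75 at an unadjusted p under 0.05). With only the 2 clusters compared in the fit, 2214 and 1184 were called, and with cells thinned to 1000 UMIs 727 and 365. Leaving out 1 library gave 807 to 1172 calls against cluster 0, 352 to 583 against cluster 6 and 6 to 68 in the Areg split, lowest without library 2 in the cluster comparisons and without library 3 in the split, where leaving out library 2 gave 44. DESeq2 called 23 genes in the split and sums of thinned UMIs 29. The higher and lower calls of the split were 73 and 8, against 60 and 19 with no filter and 89 and 25 with cells split on all UMIs. In that last split Chchd10 was at 0.0084 and Lgals1 at 0.27 on the log2 scale, in place of negative values. The share of Tregs with a Foxp3 UMI was 57.5% at 2000 UMIs and 73.4% with all UMIs, and with an Areg UMI 28.6% and 35.4%. The cause of these changes was not tested. Of the calls against cluster 0, 656 held without each library in turn and 475 in all 11 alternatives that keep the block, and against cluster 6 268 and 201. In the split 6 held without each library and 5 in all 10 alternatives that keep the block. A detected UMI is limited by depth, so cells without one are not shown to lack the gene.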

Other observations

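Ighm, the heavy chain gene of immunoglobulin M, was read in Tregs. It was at 394, 229.9 and 335 CPM in the Tregs of libraries 1, 2 and 3 and at 83.8, 33 and 91.6 in cluster 0, with no overlap (2.26 ± 0.21, adjusted p = 4.04e-09, edgeR), and at 26.6, 8.17 and 52.9 in cluster 6 (3.46 ± 0.28, adjusted p = 1.63e-09, or 4.20 without library 3). After thinning to 1000 UMIs an Ighm UMI was seen in 25%, 19.7% and 25.8% of Tregs, against 7.14%, 2.42% and 7.82% of cluster 0, 2.94%, 1.69% and 4.73% of cluster 6 and 65.6%, 42% and 36.3% of B cells. By mean unscaled CPM Ighm was highest in cluster 12, named pDC, at 974, 1065 and 733, with 2 cells in library 2. Tregs ranked 4, after the plasma and B cell clusters too. Clusters 8 (185, 118 and 163) and 10 (160, 68.7 and 127) came next. The 6 listed B cell markers summed to 36.7, 5.79 and 13.4 unscaled CPM in Tregs and 34.2, 0.428 and 13.2 in cluster 0. Scrublet called 2 of the 1287 Tregs doublets. The part of RNA from B cells or from other cells in the Ighm reads was not tested.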
